A study of Mus musculus with 16 samples.

Results

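The matrix metalloproteinases (Mmp), the ADAMTS proteases and the tissue inhibitors of metalloproteinases (Timp) were followed in mouse kidneys 24 h after unilateral ureteral obstruction (UUO), with and without the cytokine interleukin-33. The members were taken by symbol, as every gene whose name starts with Mmp, Timp or Adamts followed by a digit. They came to 40 of the 18132 genes in the table, namely 22 Mmp, 14 Adamts and 4 Timp genes. All 40 matched a RefSeq symbol, and the annotation of GRCm38.p6 holds 46 symbols of these families. The other 6, Adamts5, Adamts6, Adamts9, Adamts10, Adamts14 and Mmp25, were not analysed here.

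Whole-kidney RNA was measured on Illumina BeadChips, with 1 intensity per gene and array and 1 array per kidney. In the UUO groups a metal clip closed the left ureter of 7 wild-type (WT) and 5 IL-33-deficient mice, and the obstructed kidney was taken 24 h later. The control groups were 2 WT and 2 IL-33-deficient kidneys that the labels call control, without saying whether those mice had sham surgery. The labels give the strain as C57/BL6, the IL-33-deficient line was crossed back to C57BL/6J BomTac, and the methods give an age of 8 weeks unless stated otherwise. The gene was missing from the whole animal, so the model singles out no cell type. The UUO kidneys came in a set 1 (3 WT and 2 IL-33-deficient) and a set 2 (4 WT and 3 IL-33-deficient), and the set of the controls is not in the labels. Arrays are called here by the number in their label. Il33 itself ran from 8.39 to 9.57 on the log2 intensity scale in the WT UUO kidneys and from 6.80 to 7.02 in the IL-33-deficient ones, with controls at 7.62 and 8.02 in WT and 6.85 and 6.88 without the gene, so the labels of genotype held in every array. The array medians lay between 132 and 133 on the linear scale, and the lowest value in the table, 95.5, is a floor of background that compresses changes of dim genes. Of the 40 members, 14 were below the array median on all 16 arrays, 9 were above it on all of them, and 17 were mixed.

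Matrix metalloproteinases are zinc-dependent enzymes that are made as inactive precursors and cut collagens, proteoglycans, growth factors and each other once their prodomain is removed. The ADAMTS proteases are secreted relatives with thrombospondin repeats, some of which cut aggrecan and versican and some of which trim the ends of procollagens. TIMPs bind the active site of these enzymes and so set how much of their activity is free, and obstruction of the ureter is a common model in which kidney matrix builds up.

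After UUO a small group of these genes changed and most were not called (plot of the response of all 40 genes). In WT kidneys 9 of the 40 members changed at an adjusted p under 0.05 in limma (22.5% of members), 6 of them higher and 3 lower, against 15.2% of all genes called in that comparison, 6.97% higher and 8.22% lower. In IL-33-deficient kidneys 12 of 40 changed (30.0%), 7 higher and 5 lower, against 21.8% of all genes, 10.6% higher and 11.2% lower. At an unadjusted p under 0.05 the members were 11 in WT and 15 without IL-33, beside 26% and 30.7% of all genes. In WT 5 members were above and 3 below their controls without overlap, against 10.2% and 11.2% of all genes, and without IL-33 8 were above and 9 below, against 17.5% and 17.5%. The same 9 genes were called in both genotypes and each kept its direction. Timp1, Mmp3, Mmp14, Adamts1, Adamts2 and Adamts4 rose, and Timp2, Mmp13 and Adamts15 fell. By family, 2 of 4 Timp, 3 of 22 Mmp and 4 of 14 Adamts genes were called in WT, and without IL-33 the numbers were 2, 6 and 4. The median log2 fold change of the members was 0.03 in WT and -0.000506 in IL-33-deficient kidneys, beside -0.000759 and -0.000570 over all genes. These are amounts of RNA in whole tissue, in which fewer cells of a type and less RNA per cell cannot be told apart. With only 2 controls a genotype, leaving out WT control 3812 kept 2 calls in WT, Mmp13 and Timp1, and leaving out WT control 3811 kept 4, those with Adamts15 and Timp2, while leaving out IL-33-deficient control 3814 kept 7 of the 12. The calls over all genes fell in these fits as well. In WT they went from 2754 to 809 without 3812 and to 1051 without 3811. In IL-33-deficient kidneys they went from 3955 to 2575 without 3814.

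**Figure D1:**
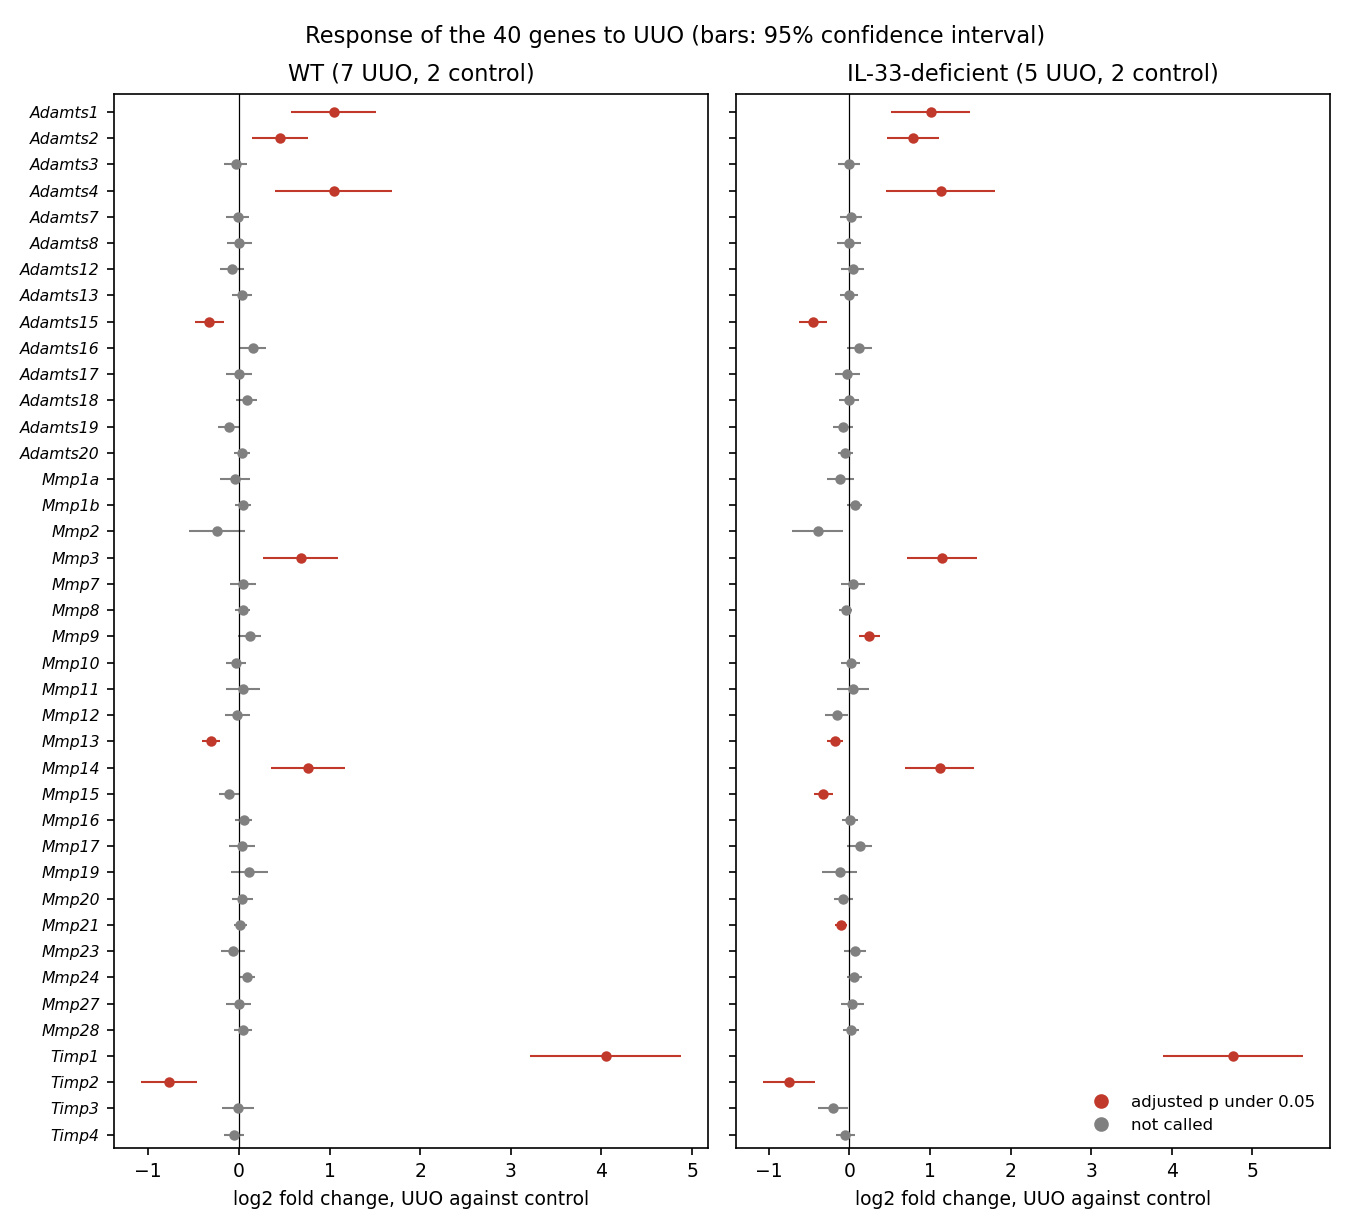
Log2 fold change of UUO against control kidneys for each of the 40 genes in WT (left, 7 UUO and 2 control arrays) and IL-33-deficient mice (right, 5 and 2), with bars for the 95% confidence interval and red for an adjusted p under 0.05 in limma. Timp1 stood at 4.05 and 4.76, the other called rises lay between 0.25 and 1.15, and most genes were close to 0.

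Timp1, a secreted inhibitor of most soluble MMPs that is widely known as an injury-induced gene, had the largest change of the 40 in both genotypes. Its log2 intensity was 7.40 and 7.47 in the WT controls and 7.29 and 7.65 in the IL-33-deficient controls. In the 7 WT UUO kidneys it ran from 10.04 through a median of 11.71 to 12.27, and in the 5 IL-33-deficient UUO kidneys it was 12.39, 12.57, 12.25, 12.02 and 11.93. Every obstructed kidney was thus above every control, and the lowest of all 12 was WT kidney 3820. The rise was 16.5-fold in WT (log2 4.05, standard error (SE) 0.39, adjusted p = 2.62e-05 in limma) and 27.1-fold in IL-33-deficient kidneys (log2 4.76, SE 0.41, adjusted p = 5.28e-06). As the gene with the largest change, its promoter is shown as the 250 bases before the transcription start in RefSeq (GRCm38.p6). No capitals appear because the AP-1 letters TGANTCA, searched for in the protease promoters described further on, are not in it.
Timp1 (chrX:20869916-20870165, plus strand): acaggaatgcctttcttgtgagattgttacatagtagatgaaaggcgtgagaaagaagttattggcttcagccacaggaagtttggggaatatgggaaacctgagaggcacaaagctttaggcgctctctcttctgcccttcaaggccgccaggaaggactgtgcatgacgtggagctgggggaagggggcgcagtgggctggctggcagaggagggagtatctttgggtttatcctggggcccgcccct

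Timp2, which besides inhibiting MMPs takes part in the activation of proMMP-2 on the cell surface by Mmp14, went the other way. It stood at 9.29 and 9.42 in the WT controls and at 9.38 and 9.26 in the IL-33-deficient controls. The WT UUO kidneys ran from 8.33 through 8.40 to 8.95, and the IL-33-deficient ones were at 8.75, 8.55, 8.52, 8.55 and 8.46. All 12 were below all 4 controls, and within WT the 3 kidneys of set 1 (8.78, 8.82 and 8.95) were above the 4 of set 2 (8.33 to 8.40). The fall was 1.70-fold in WT (log2 -0.77, SE 0.14, adjusted p = 0.00243) and 1.69-fold without IL-33 (log2 -0.75, SE 0.15, adjusted p = 0.00191).

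The other two inhibitors were not called in either genotype. Timp3, which binds to the matrix and also inhibits several ADAMTS enzymes, was at 12.69 and 12.56 in WT controls and 12.55 and 12.69 in IL-33-deficient controls. After UUO it ran from 12.49 through 12.60 to 12.76 in WT and was 12.27, 12.41, 12.36, 12.51 and 12.56 without IL-33. The WT kidneys thus spanned their controls, with a log2 difference of -0.01 (95% confidence interval -0.19 to 0.17), and the IL-33-deficient kidneys lay mostly below theirs, at -0.20 (interval -0.39 to -0.02, adjusted p = 0.118 in limma). Timp4, the inhibitor best known from heart and fat, was below the array median on every array. It was 6.84 and 7.0 in WT controls and 6.95 and 6.83 in IL-33-deficient controls, ran from 6.80 through 6.87 to 6.92 in WT UUO kidneys and was 6.70, 6.88, 6.86, 6.87 and 6.88 in the IL-33-deficient ones. Its groups overlapped, with log2 differences of -0.06 (interval -0.17 to 0.06) and -0.05 (interval -0.17 to 0.07).

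**Figure D2:**
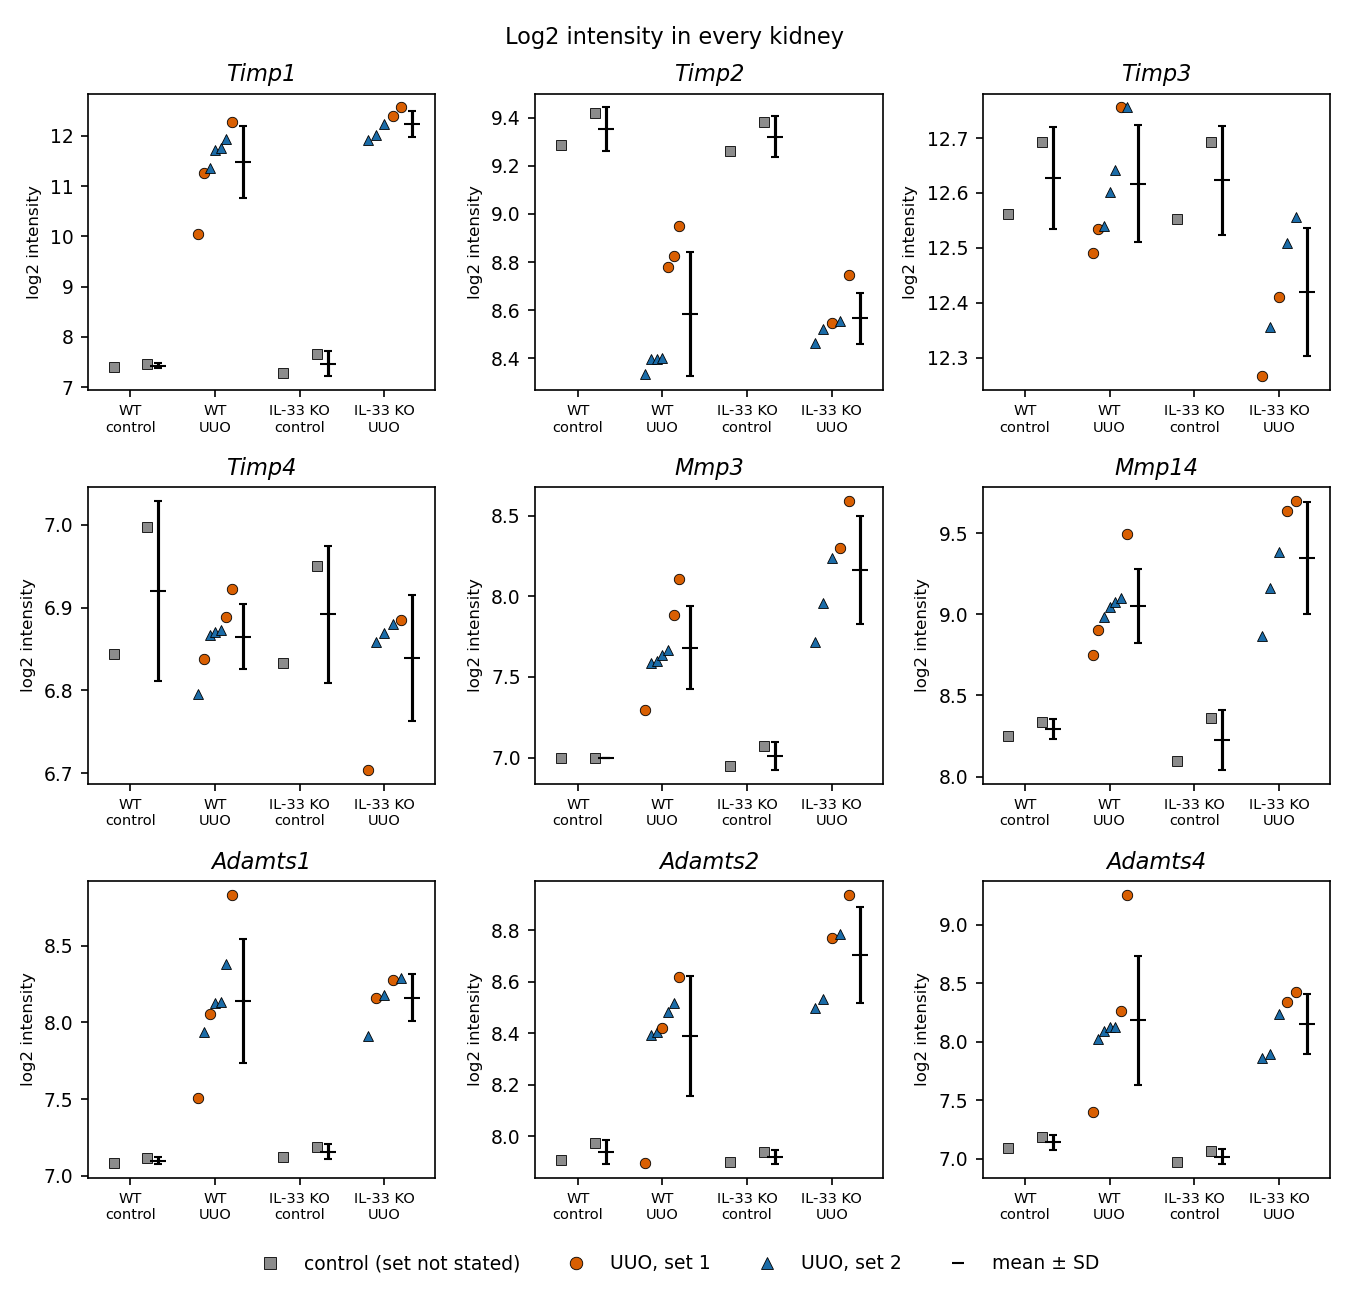
Log2 intensity of 9 genes in every kidney, with grey squares for controls, orange circles for UUO kidneys of set 1 and blue triangles for those of set 2, and bars for the mean ± SD of each group; each panel has its own scale. Timp1 was between 10.04 and 12.57 in all UUO kidneys and no higher than 7.65 in any control, whereas Timp2 was below its controls in all of them.

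Among the Mmp genes, 10 lie side by side on mouse chromosome 9, in the order Mmp13, Mmp12, Mmp1b, Mmp3, Mmp1a, Mmp10, Mmp8, Mmp27, Mmp20 and Mmp7, and RefSeq places no other protein-coding gene among them (GRCm38.p6). The cluster holds the collagenases Mmp1a, Mmp1b, Mmp8 and Mmp13, the stromelysins Mmp3 and Mmp10, the macrophage elastase Mmp12, the enamel protease Mmp20 and matrilysin, Mmp7. Most of their promoters carry a shared stretch of sequence. The letters TGANTCA, the form that AP-1 factors of the Fos and Jun families are known to bind, were searched on both strands (the reverse complement reads the same) from 250 bases before to 50 bases after the start of transcription. They were found in 8 of the 10 genes of the cluster and in 0 of the 19 members outside it with a promoter sequence, and in 7.81% of all 32851 RefSeq promoter windows. The 8 stretches are shown to let these neighbours be compared, each with 17 bases on either side and the match in capitals, on the strand of the gene in GRCm38.p6.
Mmp13 (chr9:7272462-7272502, plus strand): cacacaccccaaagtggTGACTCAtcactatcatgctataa
Mmp12 (chr9:7347313-7347353, plus strand): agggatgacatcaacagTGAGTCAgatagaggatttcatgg
Mmp1b (chr9:7388096-7388136, minus strand): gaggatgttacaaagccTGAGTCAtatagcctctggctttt
Mmp3 (chr9:7445759-7445799, plus strand): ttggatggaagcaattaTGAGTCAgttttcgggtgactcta
Mmp1a (chr9:7464051-7464091, plus strand): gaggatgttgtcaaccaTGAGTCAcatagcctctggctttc
Mmp10 (chr9:7502262-7502302, plus strand): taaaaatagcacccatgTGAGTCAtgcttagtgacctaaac
Mmp20 (chr9:7628119-7628159, plus strand): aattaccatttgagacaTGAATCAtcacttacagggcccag
Mmp7 (chr9:7692010-7692050, plus strand): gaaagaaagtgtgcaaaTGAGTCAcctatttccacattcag
The capitals start 35 bases before the transcription start in Mmp13, 44 in Mmp12, 46 in Mmp3, 63 in Mmp10 and in Mmp7, 73 in Mmp1a, 93 in Mmp1b and 95 in Mmp20. Mmp1a and Mmp1b are copies of the interstitial collagenase gene, and whether the array tells their RNA apart was not tested. Among the 29 members with a promoter sequence, a STAT form, TTCNNNGAA, was in 1 (Mmp23) against 8.30% of all windows, and an ETS form, CGGAAG, was in 2 (Mmp14 and Mmp28) against 16.9%. A match describes letters in a window and not a bound site.

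Of the 10 genes of the cluster, 2 were called in both genotypes, in opposite directions, beside 15.2% of all genes called in WT and 21.8% without IL-33 (plot of the Mmp gene cluster). Mmp3, stromelysin-1, which cuts proteoglycans and fibronectin and activates other proMMPs, rose. It read 7.0 in both WT controls and 6.95 and 7.07 in the IL-33-deficient controls. The WT UUO kidneys ran from 7.30 through 7.64 to 8.11, and the IL-33-deficient ones were at 8.30, 8.59, 8.23, 7.96 and 7.72. All UUO kidneys were above all controls, with WT kidney 3820 again the lowest. The change was 1.60-fold in WT (log2 0.68, SE 0.19, adjusted p = 0.0279) and 2.22-fold in IL-33-deficient kidneys (log2 1.15, SE 0.20, adjusted p = 0.000804). Mmp13, the main collagenase of rodents, lay at 7.15 to 7.36 in the 4 controls and at 6.95 to 7.11 in the 12 UUO kidneys, without overlap. Its fall was small, with a log2 fold change of -0.31 (SE 0.05, adjusted p = 0.000596) in WT and -0.18 (SE 0.05, adjusted p = 0.0121) without IL-33. The other 8 genes of the cluster were not called in either genotype, and their log2 fold changes lay between -0.04 and 0.05 in WT and between -0.16 and 0.06 in IL-33-deficient kidneys.

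**Figure D3:**
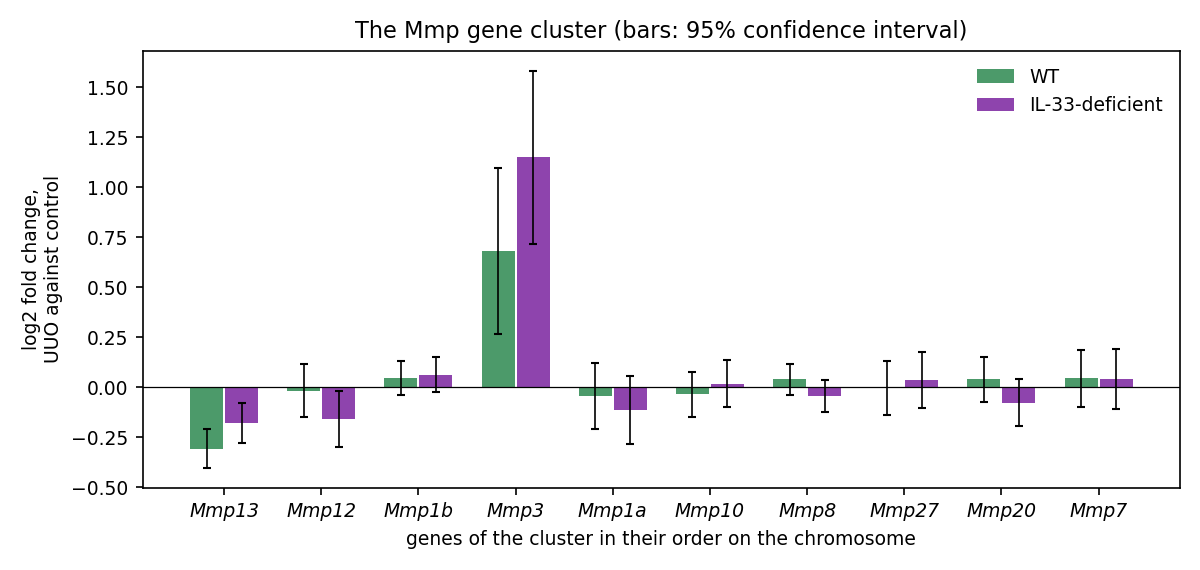
Log2 fold change of UUO against control kidneys for the 10 Mmp genes of the cluster, in their order on the chromosome, in WT (green) and IL-33-deficient mice (purple), with bars for the 95% confidence interval. Mmp3 rose by 0.68 and 1.15 and Mmp13 changed by -0.31 and -0.18, while the other 8 stayed within -0.16 and 0.06.

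Outside the cluster, Mmp14 was the Mmp gene that rose most. It encodes the membrane-bound MT1-MMP, a collagenase of the cell surface that activates proMMP-2 and proMMP-13. It was at 8.33 and 8.25 in WT controls and at 8.09 and 8.36 in IL-33-deficient controls. In WT UUO kidneys it ran from 8.75 through 9.04 to 9.50, and without IL-33 it was 9.63, 9.70, 9.38, 9.16 and 8.86. Again no UUO kidney reached down to a control. The rise was 1.69-fold in WT (log2 0.76, SE 0.19, adjusted p = 0.0150) and 2.18-fold in IL-33-deficient kidneys (log2 1.12, SE 0.20, adjusted p = 0.000905).

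The gelatinases, which cut denatured collagen and basement membrane collagen IV, had small differences. Mmp9, stored in neutrophil granules, was called in IL-33-deficient kidneys only, from 7.14 and 7.20 in controls to between 7.35 and 7.47 (log2 0.25, SE 0.06, adjusted p = 0.00724), while in WT it was 0.12 (SE 0.06, adjusted p = 0.213). Mmp2, the gelatinase of mesenchymal cells and the substrate of Mmp14, was not called in either, at -0.24 (interval -0.55 to 0.06) and -0.39 (interval -0.71 to -0.08, adjusted p = 0.0760). It is described here for its place beside Mmp14 and Timp2, chosen after its values were seen, and it passed in IL-33-deficient kidneys with array 3822 left out, with the UUO arrays of set 2 alone and among the genes brighter than the median gene, and in WT with set 2 alone. Mmp15, another membrane-type MMP, and Mmp21 were called lower in IL-33-deficient kidneys, at -0.32 (SE 0.06, adjusted p = 0.000843) and -0.11 (SE 0.03, adjusted p = 0.0373). The call of Mmp21 was lost in 5 of the 16 fits that left out 1 array, with either set alone, with WT kidneys 3818 and 3820 left out and with only the 2 groups in the fit. In WT they were at -0.10 (adjusted p = 0.257) and 0.01 (adjusted p = 0.862). For both genes the IL-33-deficient controls were above the WT controls to begin with, with Mmp15 at 7.29 and 7.23 against 6.95 and 7.06, and Mmp21 at 6.92 and 6.96 against 6.88 and 6.81. After UUO, Mmp15 lay between 6.80 and 6.97 in WT and between 6.87 and 7.02 without IL-33.

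Among the ADAMTS genes, the proteoglycan-cutting Adamts1 and Adamts4 rose most, by 2.01- to 2.20-fold in each genotype. Adamts1 was 7.08 and 7.11 in WT controls and 7.19 and 7.12 in IL-33-deficient controls. After UUO it ran from 7.51 through 8.13 to 8.83 in WT and was 8.28, 8.16, 8.29, 8.18 and 7.91 without IL-33. Every UUO kidney was above every control, and the lowest of the 12 was WT kidney 3818, not 3820. The rise was 2.06-fold in WT (log2 1.04, SE 0.22, adjusted p = 0.00508) and 2.01-fold without IL-33 (log2 1.01, SE 0.23, adjusted p = 0.00475).

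Adamts4, known as an aggrecanase, was at 7.18 and 7.09 in WT controls and at 7.06 and 6.97 in IL-33-deficient controls. The WT UUO kidneys ran from 7.39 through 8.12 to 9.26 and the IL-33-deficient ones were at 8.34, 8.43, 7.90, 8.23 and 7.86. The groups did not overlap, and WT held both the lowest of the 12 kidneys, 3818, and the highest, 3820. The rise was 2.06-fold in WT (log2 1.04, SE 0.30, adjusted p = 0.0308) and 2.20-fold without IL-33 (log2 1.13, SE 0.32, adjusted p = 0.0173).

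Adamts2, which removes the aminopropeptide from fibrillar procollagens, was at 7.91 and 7.97 in WT controls and at 7.90 and 7.94 in IL-33-deficient controls. After UUO it ran from 7.90 through 8.42 to 8.62 in WT and was 8.77, 8.94, 8.79, 8.53 and 8.50 without IL-33. WT kidney 3820 stayed at the level of the controls, while the other 11 were above all of them. The log2 fold change was 0.45 in WT (SE 0.14, adjusted p = 0.0488), a call that was lost in 13 of the 16 fits that left out 1 array, and 0.78 in IL-33-deficient kidneys (SE 0.15, adjusted p = 0.00151). Adamts15, a further proteoglycan-cutting enzyme, fell, from 7.27 to 7.53 in the controls to between 6.88 and 7.22 in the UUO kidneys (log2 -0.32, SE 0.08, adjusted p = 0.00957 in WT and log2 -0.45, SE 0.08, adjusted p = 0.000755 without IL-33). With 7 UUO kidneys against 2 controls the exact two-sided permutation test could reach no p below 0.0278, and with 5 against 2 none below 0.0476. The called members had these smallest values wherever their groups did not overlap, and Adamts2 in WT had an exact p of 0.0833.

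The remaining 26 genes, Mmp2 among them, had log2 intensities between 6.67 and 7.83 on all arrays. Their log2 fold changes lay between -0.24 and 0.15 in WT (lowest adjusted p 0.175) and between -0.39 and 0.13 in IL-33-deficient kidneys (lowest adjusted p 0.0760). They included Adamts13, which cuts von Willebrand factor, the procollagen peptidase Adamts3, and Mmp11 and Mmp19.

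The question the study asked of these arrays was whether IL-33 alters the early response to obstruction, and for that the IL-33-deficient and WT kidneys were compared after UUO. The study asked for a fold change above 1.3 together with an unadjusted p under 0.05 and an adjusted p under 0.25, and at that threshold limma called 0 of the 40 members, against 0.011% of all genes. This fit held all 7 WT and 5 IL-33-deficient kidneys, whereas the study's own contrast held 4 WT kidneys, which its text does not name. With the 4 WT kidneys of set 2 in place of the 7 limma called 2 members, Mmp3 and Timp1, and 226 of the 18132 genes. That fit kept the IL-33-deficient kidneys of both sets, so set and genotype were partly mixed in it. With the set as a block, with set 1 alone and with set 2 alone 0 members were called, beside 1, 0 and 81 genes. In the fit of all 12 UUO kidneys 4 members had an unadjusted p under 0.05, which is 10% of the members beside 10.3% of all genes. Of these, 3 were higher without IL-33 and 1 was lower, beside 5.55% and 4.78% of all genes. No member had groups without overlap, while 0.756% of all genes did. The 4 were Timp1, Mmp3, Adamts2 and Timp3, and all their adjusted p-values were at or above 0.324. Mmp3 is a gene of the study's list, which was chosen on arrays of this series, so its calls here are not independent of that list.

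In this comparison Timp1 was 1.69-fold higher without IL-33 (log2 0.75, SE 0.31, 95% confidence interval 0.09 to 1.42, adjusted p = 0.427, exact two-sided permutation p = 0.0328 over 792 splits). The mean log2 intensity was 11.48 ± 0.72 (SD, n = 7) in WT and 12.23 ± 0.26 (SD, n = 5) without IL-33. Of the WT kidneys 3819 at 12.27 and 3895 at 11.94 were inside the range of the IL-33-deficient ones, and 3820 at 10.04 was far below it. Without 3820 the difference was 0.51. Within set 1 it was 1.29 and within set 2 it was 0.37 (plot of the genotype difference after UUO).

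Mmp3 was 1.39-fold higher (log2 0.48, SE 0.15, interval 0.15 to 0.81, adjusted p = 0.330, exact permutation p = 0.0202). Its mean was 7.68 ± 0.26 (SD, n = 7) in WT and 8.16 ± 0.33 (SD, n = 5) without IL-33. It was the 1 member of 40 whose IL-33-deficient kidneys were above the WT kidneys, without overlap, inside set 1 (8.30 and 8.59 against at most 8.11) and inside set 2 (7.72 to 8.23 against at most 7.67), which held for 1.08% of all genes. It passed the study's threshold when WT kidney 3819 or IL-33-deficient kidney 3899 was left out, and Timp1 did so without 3819 as well. Those fits called 309 of 18132 genes without 3819 and 94 without 3899.

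Adamts2 was 1.24-fold higher without IL-33 (log2 0.31, SE 0.11, interval 0.07 to 0.56, adjusted p = 0.381, exact permutation p = 0.0152). The difference was 0.23 without WT kidney 3820, 0.54 within set 1 and 0.16 within set 2. Timp3, in contrast, was lower (log2 -0.20, SE 0.06, interval -0.33 to -0.06, adjusted p = 0.324, exact permutation p = 0.0139), with -0.26 in set 1 and -0.16 in set 2. Mmp14 had a log2 difference of 0.30 (SE 0.15, interval -0.03 to 0.62, adjusted p = 0.530, exact permutation p = 0.109), which was 0.62 in set 1 and 0.09 in set 2.

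For the other strongly changed members the intervals spanned 0. They reached from -0.35 to 0.40 for Adamts1 (difference 0.02), from -0.55 to 0.49 for Adamts4 (difference -0.03) and from -0.26 to 0.23 for Timp2 (difference -0.02). The sign of these small differences turned with the set or with the kidneys left out. Timp2 was the clearest case, since the IL-33-deficient kidneys were below the WT kidneys in set 1 (8.55 and 8.75 against 8.78 to 8.95) and above them in set 2 (8.46 to 8.55 against 8.33 to 8.40). The 26 remaining genes lay between -0.09 and 0.13.

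**Figure D4:**
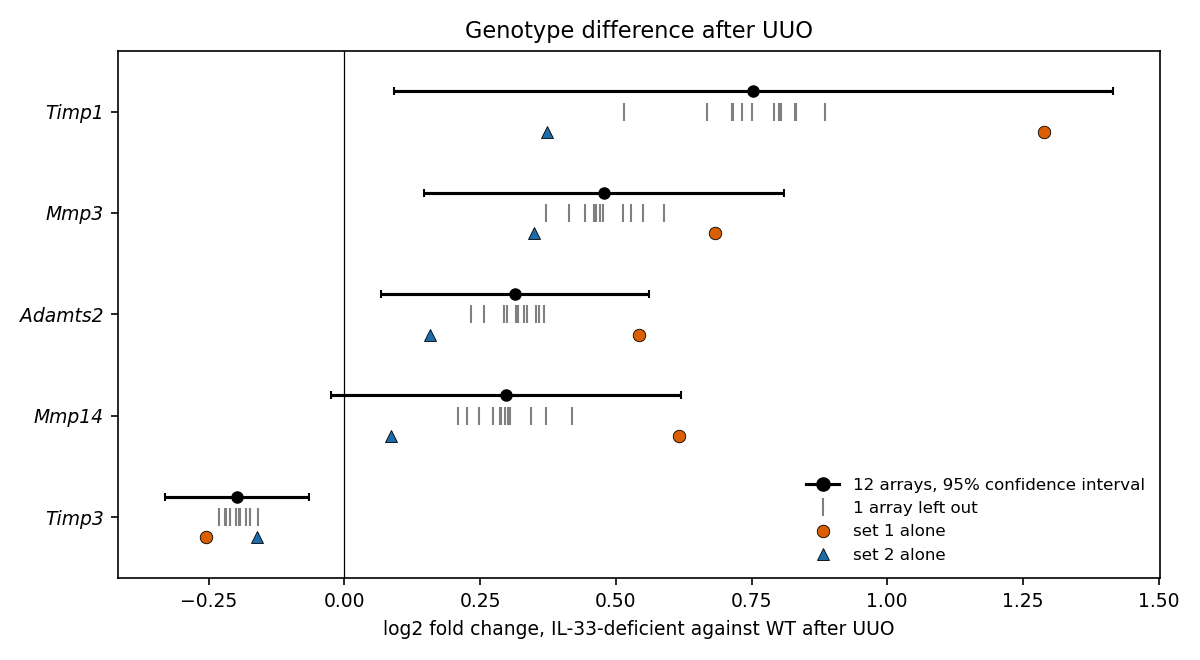
Log2 difference between IL-33-deficient and WT kidneys after UUO for 5 genes, as the value of the 12 arrays with its 95% confidence interval (black), the 12 values with 1 array left out (grey ticks), and the values of set 1 (orange circle) and set 2 (blue triangle) alone. Timp1 was 0.75 over 12 arrays, 1.29 in set 1 and 0.37 in set 2, and Timp3 was below 0 in each.

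The genotype difference in the response itself, tested as an interaction over all 16 arrays, was called by limma for 0 of 40 members, as for 0 of 18132 genes (0%). At an unadjusted p under 0.05 there were 2 members, Mmp15 (log2 -0.22, SE 0.08) and Mmp21 (log2 -0.12, SE 0.05), each with an adjusted p of 0.973. Both were lower, beside 4.74% of all genes in either direction and 2.31% lower. So a call of Mmp9, Mmp15 or Mmp21 without IL-33 and not in WT was not shown to be a difference between the genotypes. The interaction was 0.71 for Timp1 (interval -0.49 to 1.92), 0.47 for Mmp3 (interval -0.13 to 1.07) and 0.36 for Mmp14 (interval -0.23 to 0.96). Between the control kidneys, 2 against 2, limma called 0 members and 0% of all genes, and 5 members had an unadjusted p under 0.05 (12.5% of the members beside 3.66% of all genes). Without IL-33 4 of them were higher (Mmp15, Mmp20, Mmp21 and Adamts20) and 1 was lower (Mmp13), beside 1.85% and 1.81% of all genes, and 13 members were above and 4 below the WT controls without overlap, beside 17.1% and 16.9%. Mmp15 had the largest of these differences (log2 0.26, SE 0.07, adjusted p = 1.00). Of the 5, Mmp20, Mmp21 and Adamts20 were below the array median on all 16 arrays, near the floor of background.

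Of 5 tubular injury genes, 4 rose in WT and 5 without IL-33, beside 6.97% and 10.6% of all genes called higher. These were Havcr1, which encodes the kidney injury molecule KIM-1 (log2 5.78 and 6.52), Lcn2 (5.61 and 5.91), Krt20 (3.24 and 3.19), Sox9 (0.88 and 0.87) and, without IL-33, Vcam1 (1.20). WT kidneys 3818 and 3820 were the lowest of the 12 UUO kidneys for Havcr1, Lcn2 and Sox9. For Krt20 3820 was the lowest but 3818, at 9.68, was above 3893 at 9.27, and for Vcam1 3820, at 9.12, was above the 4 WT kidneys of set 2 (8.26 to 8.73). Havcr1 was 12.84 in 3818 and 10.42 in 3820 and between 13.12 and 13.95 in the other 10, with controls at 7.07 to 7.37. Kidney 3820 was the lowest of the 12 for Timp1, Mmp3, Mmp14 and Adamts2, which rose after UUO, and the highest for Timp2, which fell. It was thus the kidney nearest to the controls for these genes. For Adamts4, which also rose, 3820 was the highest, and for Adamts1 the lowest was 3818. Not all members therefore followed 1 order over the kidneys. With both kidneys left out the differences between genotypes after UUO were 0.42 for Timp1, 0.44 for Mmp3, 0.22 for Adamts2, 0.21 for Mmp14 and -0.19 for Timp3. The part of the injury genes in the genotype difference was not tested.

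Genes that work beside the members were read from lists chosen by function. Over all genes 6.97% were called higher and 8.22% lower in WT, and 10.6% and 11.2% without IL-33. Of 21 matrix proteins cut by these enzymes, 10 rose and 0 fell in WT, and 12 rose and 0 fell without IL-33, with medians of 0.31 and 0.52 beside medians near 0 over all genes. The 3 largest rises in each genotype were among those of Spp1 (osteopontin, 1.44 in WT and 1.25 without IL-33), Col1a1 (type I collagen, 1.17 and 1.63), Col4a1 (basement membrane collagen, 1.12 and 1.46) and Sparc (1.06 and 1.57). After UUO 9 of the 21 had an unadjusted p under 0.05 in limma between genotypes, beside 10.3% of all genes, and 0 passed the study's threshold, with a median difference of 0.15. The list was drawn up with Col1a1 and Col3a1, which the study names as higher without IL-33 on arrays of this series. The count is therefore not independent of the study's result. Of 15 transcription factors and cytokines known to drive Mmp genes, 5 rose in WT and 7 without IL-33 and 0 fell. Egr1 (2.38 and 2.49), Junb (1.73 and 2.03) and Jun (0.98 and 1.15), of which Junb and Jun are AP-1 subunits, were the largest. Elf3 and Ets2 made up the other calls in both genotypes, with Il1b and Tgfb1 added without IL-33, and the genotypes differed at an unadjusted p under 0.05 in 0 of them.

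The next lists are short, no set test was run on them, and 15.2% of all genes were called in WT and 21.8% without IL-33. Of 11 proteases and receptors that activate MMPs or plasminogen, 2 rose and 1 fell in WT, and 3 rose and 2 fell without IL-33. Plaur, the urokinase receptor, rose by 1.08 and 1.04, the lysosomal protease Ctsb rose by 0.82 and 1.04, and the proprotein convertase Pcsk7 changed by -0.52 and -0.55. Without IL-33 the protease Ctsl rose by 0.51 and hepsin, Hpn, was at -0.79. Of 9 other inhibitors and clearance receptors, 0 rose and 2 fell in each genotype. These were Serpinf2, the plasmin inhibitor (-0.80 and -1.57), and Reck, a membrane-bound inhibitor of MMPs (-0.16 and -0.24). Of 12 ADAM and meprin genes, Mep1b, the meprin of the brush border, fell in both genotypes (-1.75 and -2.24) and Mep1a without IL-33 (-0.80), and 0 rose. Of 4 ADAMTS-like genes, Adamtsl2 fell without IL-33 (-0.47) and none was called in WT.

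Some markers of other cells were called after UUO, and a summed intensity follows the brightest genes of its list. The summed intensity of 8 stromal markers was 3421 to 3921 in controls of both genotypes, 3457 to 4784 in WT UUO kidneys and 5050 to 5606 in IL-33-deficient ones, and Acta2, the smooth muscle actin of myofibroblasts, was the 1 marker of all lists that passed the study's threshold between genotypes after UUO (log2 0.67, SE 0.11, adjusted p = 0.233). For 8 neutrophil markers the sums were 967 to 1356 in controls, 1281 to 2812 in WT and 1829 to 3278 in IL-33-deficient UUO kidneys. S100a8 was called higher in both genotypes, Retnlg in WT and S100a9 without IL-33. In each of the 2 comparisons 6 of the 8 were not called, and the median log2 fold change of the list was only 0.03 in WT and 0.08 without IL-33. For 8 macrophage markers the sums in the same groups were 1694 to 1972, 1982 to 3621 and 2487 to 3668. Cd68 and C1qa were called higher and Csf1r lower in both genotypes, and Lyz2 and C1qb higher without IL-33. For 6 proximal tubule markers the sums were 34962 to 36025 in controls, 14175 to 35309 in WT and 9726 to 19012 in IL-33-deficient UUO kidneys. In WT 0 of these 6 were called, and Slc34a1, Slc22a6, Aqp1 and Slc5a2 were lower without IL-33. The median log2 fold change of the 6 was -0.62 in WT and -1.12 without IL-33. The interaction was called for 0 of them, as for 0% of all genes, so a difference between the genotypes in this response was not shown. Of 8 distal markers, Slc12a1, Aqp2 and Aqp3 were lower in both and Slc12a3 in WT. Endothelial markers were called in 0 of 8 in WT and in 3 of 8 without IL-33, Plvap higher and Tek and Tie1 lower. Stromal markers called higher in both genotypes were Acta2, Tagln, Des and Pdgfrb, and Myh11 was lower in WT. These markers are named because they were called, beside 15.2% of all genes called in WT and 21.8% without IL-33. None of the 7 lymphocyte, 6 adrenal or 5 fat cell markers was called in either. The part of these cell types in the changes of the proteases and inhibitors was not tested.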

How the data were processed

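Whole-kidney RNA of 16 mice was hybridised to Illumina BeadChips, 1 array per kidney. The authors used the beadarray package to read the arrays and deposited a linear intensity per gene symbol and array, and the submitters' processing notes name BeadStudio 2. Background correction, normalization and the joining of probes are not given in the sources used here. All 16 columns of values were used, and 0 were left out. The number of arrays limits the precision, and where separate litters are not stated the p-values measure the spread between these kidneys alone.

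The intensities were quantile-normalized, taken to log2 and compared with lmFit and eBayes in limma 3.58.1 (R 4.3.3), and p-values were adjusted by Benjamini-Hochberg across the 18132 genes, none of which was filtered out. The responses to UUO, their genotype difference and the control kidneys came from one model of 4 groups, and IL-33-deficient against WT after UUO from the 12 UUO arrays. Exact two-sided permutation tests of single genes, counts and motif searches were run in Python 3.11.15 (numpy 2.4.6, pandas 2.3.3), and plots drawn with matplotlib 3.10.9. In simulated arrays with 200 genes changed by a log2 of 1, 98.0% were recovered for UUO against control in WT, 95.5% in IL-33-deficient kidneys, 91.0% for the interaction, 92.0% for the control kidneys and 99.5% for the genotypes after UUO. The noise was independent, with the spread of each gene and without a set or weakly responding kidneys. No member differed between genotypes after UUO by more than 0.75, the value of Timp1. The simulation therefore does not tell how often differences of that size would be called.

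The members and lists were chosen with earlier results of these data known. Statistics are given for members called after UUO, for the Timp genes and for the 4 lowest p-values between genotypes after UUO. The values of every array, or the range and median in the larger groups, are given for the Timp genes, those 4 and the called members with a log2 change of at least 1. Of each list the 3 called genes with the largest change in each genotype are named. Other called list genes, Mmp2, Mmp20 and Adamts20 are named after their values were seen. The result of 1 marker list is not reported here. Alternatives were the normalization, the prior variance, array weights, the genes brighter than the median gene, each array or both weakly responding WT kidneys left out, each set alone, the set as a block, the arrays in the fit and the threshold. Promoter sequences are RefSeq's for GRCm38.p6.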

Additional observations from a re-analysis of the deposited data

Results flagged for a closer look

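In 28 groups of UUO kidneys (14 genes in 2 genotypes) 3 had a kidney far from the others, by the gap to its nearest neighbour over the range of the group, and chance flags about 1 in 20 groups. Adamts2 was 7.90 in WT kidney 3820, with the other 6 WT UUO kidneys between 8.39 and 8.62. Adamts15 was 7.22 in WT kidney 3894, with the others between 6.94 and 7.0. Timp4 was 6.70 in IL-33-deficient kidney 3821, with the others between 6.86 and 6.88.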

How the results depend on the processing

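With 1 array left out in turn, 2 to 9 members were called for UUO against control in WT, beside 809 to 3578 of all 18132 genes. In IL-33-deficient kidneys 7 to 13 members were called, beside 2276 to 4294 genes. For the interaction and for the control kidneys 0 to 0 members were called. For IL-33-deficient against WT after UUO 0 to 2 were called, with 2 without WT kidney 3819 (309 genes) and 1 without IL-33-deficient kidney 3899 (94 genes). With the UUO arrays of set 1 alone the calls were 4 members and 188 of 18132 genes in WT. In IL-33-deficient kidneys they were 7 members and 2258 genes. With those of set 2 alone they were 10 members and 4241 genes in WT, and 11 members and 4453 genes without IL-33. With all arrays and a log2 fold change of at least 1 asked for as well, 3 members and 331 genes were called in WT. Without IL-33 these were 5 members and 635 genes. Between genotypes after UUO, Mmp3 was the 1 member called among genes brighter than the median gene, where 168 of 9066 genes were called. It was also the 1 member called with all 16 arrays in one model, beside 127 of 18132 genes. Against the 4 WT arrays of set 2 alone 2 members were called, beside 226 genes. These were Mmp3 (log2 0.54, adjusted p = 0.125 in limma) and Timp1 (log2 0.54, adjusted p = 0.128). Of 1043 recomputed log2 fold changes of 43 values, 954 kept direction and call, 50 lost the call, 7 gained it and 32 changed sign. The last were close to 0 in the main fit, but not all stayed so after the turn. The largest was Timp2 between genotypes after UUO, at 0.18 against the 4 WT arrays of set 2 (adjusted p = 0.157 in limma). For Timp3 in WT after UUO the log2 fold change was 0.0402 without further normalization, 0.0452 with median centring and 0.00735 with set 2 alone. For the genotypes after UUO, Adamts1 was -0.0110 with array weights, -0.12 with WT kidneys 3818 and 3820 left out and -0.0212 in set 2 alone. Adamts4 was 0.0159, 0.0251, 0.0787 (set 1 alone) and 0.0599 (against 4 WT arrays of set 2), and Timp2 was 0.0488, 0.0964, 0.13 (set 2 alone) and 0.18 (against 4 WT arrays of set 2), the first pair of each with array weights and with both WT kidneys left out. With 1 array left out, differences that changed sign ranged from -0.0829 to 0.14 for Adamts1, -0.16 to 0.15 for Adamts4 and -0.0614 to 0.0447 for Timp2 after UUO, from -0.0762 to 0.0557 for Timp3, -0.13 to 0.0214 for Timp4 and -0.0200 to 0.0488 for Mmp21 in WT, and from -0.11 to 0.00580 for Timp4 without IL-33. The cause was not tested. No paired analysis was possible because the labels number each array and no number is shared between groups. Dim genes near the background floor limit what could be seen.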
